A study of Oryza sativa with 40 samples.

Results

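Leaves of rice seedlings were sampled every 4 h over 2 days, and the comparison described here asks which genes did not repeat from the first day to the second. It sets the arrays taken at 32, 36 and 40 h (day 2) against those taken at 8, 12 and 16 h (day 1), which are the same 3 clock hours 24 h earlier, with clock hour as a block. The 6 arrays of day 2 and the 6 of day 1 make 12 of the 40 arrays of the series, and 24182 of the 57194 rice probe sets on the array reached a mean signal of 100 over these 12 and were tested. The plants were Oryza sativa subsp. japonica var. Nipponbare, 17 days old, and grew under greenhouse days of 12 h at 28 °C and nights of 12 h at 25 °C. The clock times in the labels of the 12 and 36 h arrays read as midnight, and they were taken as noon, since samplings were 4 h apart and other arrays of the series carry the midnight of day 2. The labels call 8 and 32 h the end of the night, and 20 and 44 h the start of the night. The labels give no altered gene and no treatment, and the time of harvest is the only difference between the groups that they state. Each time point has 2 arrays that the labels call biological replicates. The sources used here do not state how many plants made up a replicate, or whether a replicate number marks a shared tray or day. Flag leaves of 3-month-old field plants, entrained in a greenhouse at 32 and 30 °C with the same day length and sampled at the same hours, serve below only as a comparison.

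Many leaf transcripts rise and fall with a period of a day, because the circadian clock, light and the sugar made by photosynthesis all act on them. The clock is a loop of proteins that act on the genes of one another in turn, with OsCCA1 at dawn, the PRR proteins from morning to evening and OsPCL1 and GI near dusk. A leaf that only repeats its daily programme should give the same signal at the same clock hour on both days. A young leaf also ages, and its transcripts for building chloroplasts, for breaking down chlorophyll and storage lipid, for transporting sugar and for defence are known to change over days rather than hours. Rice defends itself with diterpenoid phytoalexins, the momilactones and phytocassanes, which are built from a plastid precursor by copalyl diphosphate synthases, kaurene synthase-like cyclases and cytochromes P450.

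The signals were alike in scale on the 12 arrays. Mean signals lay between 698.8 and 732.7, medians between 53.6 and 68.2, and 41.1 to 43.7% of the rice probe sets were at or above 100. Green leaf transcripts were abundant on every array, with the Rubisco small subunit gene OsrbcS at 19800 to 26300 and the chlorophyll a/b binding protein gene CAB2R at 20600 to 37900. The meristem genes OSH1 (0.5 to 29.1) and HOS9 (30.4 to 86.5), the division genes CYCB1-1 (2.4 to 65.6) and CDC2Os-3 (24.3 to 112) and the endosperm gene prolamin (3.6 to 38.6) were low in both days. The glutelin probe set GLUA-2 was not low (999 to 1470), nor was OsGBSS1 (50.5 to 1110). OsPHO1;2, a phosphate exporter that served as the root marker, read 617 to 890 on day 1 and 481 to 613 on day 2, and its part in the differences below was not tested.

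One array stood far from its replicate. The array labelled 40 h replicate 2 was closest to 16 h replicate 2, with a standard deviation of log2 differences of 0.234 and r = 0.991 across probe sets, and next closest to 16 h replicate 1 (0.39). Against its own replicate, 40 h replicate 1, the standard deviation was 0.579. That array in turn was closest to 12 h replicate 1 (0.483), followed by 36 h replicate 1 (0.488) and 16 h replicate 1 (0.505), so it had no close partner. The 9 other replicate pairs of seedling arrays had standard deviations of 0.334 to 0.384, so this array lay closer to a sample of the previous day than any replicate lay to its partner, and 0.234 was the smallest value among all 190 pairs. Arrays of one replicate number were close across the days elsewhere too. The 12 and 36 h arrays of replicate 2 were closer to each other (0.346) than to their own replicates (0.362 and 0.354). In flag leaves the 16 and 40 h arrays of the same replicate number had 0.385 and 0.403, against 0.488 and 0.439 between the replicates of these time points. In a second comparison that used neither 16 nor 40 h, the 8 arrays at 8, 12, 32 and 36 h gave 686 probe sets that differed between the days (2.84% of 24145). Of these, 78.6 and 78.7% moved the same way between the 16 h arrays and 40 h replicate 1. Between the 16 h arrays and the array labelled 40 h replicate 2 it was 47.2 and 49%, with medians of the signed difference near 0 (-0.03 and -0.003). The counts are therefore given both with all 12 arrays and without this one array, called the doubted array below, and the choice to leave it out was made after its values were seen.

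**Figure D1:**
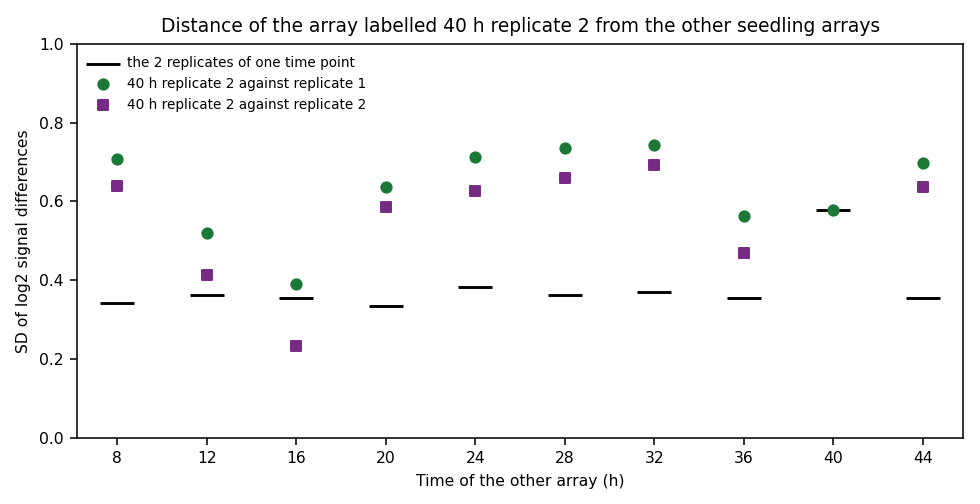
Standard deviation of log2 signal differences (vertical axis) between the array labelled 40 h replicate 2 and each of the 19 other seedling arrays, by the time of the other array in hours (horizontal axis). Green circles are replicate 1 arrays and purple squares replicate 2 arrays, and black bars are the 2 replicates of one time point. The square at 16 h (0.234) lies below every bar, and at 40 h circle and bar coincide at 0.579.

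With all 12 arrays no probe set passed. Of the 24182 tested, 0 had an adjusted p under 0.05 in limma (0% called), 3289 (13.6%) had an unadjusted p under 0.05, and the smallest adjusted p was 0.0534. With the replicate number as a further block the count was also 0 (0%). Without the doubted array 1142 of 24122 probe sets passed (4.73% called). Of these, 452 were higher (1.87%) and 690 lower (2.86%) on day 2, the shares beside which the list counts below stand. The lists draw only on 1 probe set per named or described gene. Of the 2330 such probe sets tested, 50 were higher and 93 lower. The blocked fit called 1651 (6.84%, 750 higher and 901 lower), and 1128 of the 1142 were among them. The statements that follow rest on these 11 arrays unless they say otherwise, so that the clock hour 16 of day 2 is represented by a single array. None of the genes called from 11 arrays passed with 12. There 1140 of the 1140 that were also tested kept the sign of their difference. The 12 arrays include the 11 from which these were called, so the kept sign was nearly fixed in advance and is no support.

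The called differences were mostly moderate. The median log2 difference was 0.53 among the probe sets that were higher on day 2 and -0.71 among those that were lower. More than a 2-fold change was seen in 30 of the 452 higher and in 191 of the 690 lower ones, and the extremes were 1.70 and -3.27. All 3 clock hours had the same sign in 1132 of the 1142. Among all 24122 tested, the arrays of the days did not overlap at any of the 3 hours in 1063 higher (4.41%) and 1142 lower (4.73%) probe sets. Of the 1142 called, 1063 were without overlap. The 1142 were called from these same arrays, in a fit that favours differences alike at the 3 hours. Their like signs and lack of overlap thus follow largely from the selection and are no support. The annotation gave 1 gene for 892 of the 1142, and 136 had a gene name. As whole leaves were measured, fewer cells of a type and less RNA per cell cannot be told apart.

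The genes named below can also be set against the fit of 8 arrays, which holds no array of 16 or 40 h and so neither of the arrays labelled 40 h. Its 519 calls shared with the 1142 made up 45.4% of these and 75.7% of its own 686. Of the 28 named genes with the largest differences, 23 passed there too. The 5 that did not were OsCPS2 (adjusted p = 0.095), OsCPS4 (0.072), DXPS (0.082), OsDTC1 (0.067) and VTE1 (0.057). Of all 72 named genes that were called from 11 arrays, 41 passed with 8, a fit with fewer arrays that shares its arrays with the other. Among those that did not were Os11N3 (adjusted p = 0.072), GLP2 (0.056), OsGER4 (0.12), LTP110-A (0.065) and OsCAD8A (0.072). Nor did OsTIP3 (0.054), wsl3 (0.051), GYRB (0.14) and OsPCL1 (0.074) pass. In 10 further fits 1 more of the 11 arrays was left out each time. The array never left out was 40 h replicate 1, the only one for the afternoon of day 2. These fits therefore do not show how far a call rests on it. Where a call named below was lost in several of them the number of fits that kept it is given.

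The transcripts that fell furthest included both enzymes that define the glyoxylate cycle, the route by which plants turn the carbon of fatty acids into precursors of sugar in germinating seeds and ageing leaves. OsICL encodes isocitrate lyase. Its signals, given here and below for replicates 1 and 2 in that order, were 15138 and 13835 at 8 h, 14302 and 15604 at 12 h and 8474 and 9626 at 16 h on day 1, and 6584 and 8106 at 32 h, 1896 and 2245 at 36 h and 701 at 40 h on day 2. The doubted array read 9654, close to the 16 h arrays. Every day 2 array lay below both day 1 arrays of its clock hour, and the gap widened from the end of the night to the afternoon. The log2 difference was -2.34 ± 0.35 (SE), that is 5.06-fold lower (adjusted p = 0.0066, and 0.14 with 12 arrays). MS, malate synthase, which acts in the next step, gave 16487 and 17955 at 8 h, 11694 and 17804 at 12 h and 9057 and 13996 at 16 h on day 1 and 6667 and 10535 at 32 h, 4910.5 and 6218 at 36 h and 2217 at 40 h on day 2, with 12386 on the doubted array. The days of each clock hour did not overlap, and the fall was -1.49 ± 0.23 (adjusted p = 0.0076, 0.15 with 12 arrays). The other tested member of this list, MFP of fatty acid beta-oxidation in peroxisomes, had a difference of -0.31 ± 0.10 with an adjusted p of 0.11 (0.024 with the replicate block). So 2 of 3 members fell (3 with the block) and 0 rose, and the median of the list was -1.49 against 0.0207 over all probe sets tested. This list and those of chlorophyll breakdown, plastid biogenesis and germin-like proteins were written after the leading genes had been seen, so their counts are descriptions.

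Chlorophyll breakdown genes fell as well, all 4 of the 4 that were listed (median -0.93). SGR, the STAY-GREEN protein that removes magnesium from chlorophyll a, gave 7644 and 7155 at 8 h, 7437 and 8162 at 12 h and 6720.0 and 6829 at 16 h on day 1 and 5037 and 5159.8 at 32 h, 3046 and 3294 at 36 h and 3369 at 40 h on day 2. The doubted array read 7402. Day 1 changed little from hour to hour, and every day 2 array lay below every day 1 array, with the lowest at 36 h. The difference was -0.93 ± 0.12 (adjusted p = 0.0041, 0.12 with 12 arrays). OsNYC1, a chlorophyll b reductase, gave 4852 and 5203 at 8 h, 3806 and 3958 at 12 h and 3887 and 3898 at 16 h on day 1, and 3967 and 3875 at 32 h, 1400.1 and 1326 at 36 h and 1968 at 40 h on day 2, with 3978 on the doubted array. The gap between the days was smallest at the end of the night and widest at noon. The hour differences were -0.36, -1.49 and -0.97 at clock hours 8, 12 and 16, and the test that they are equal gave an adjusted p of 0.011. OsRCCR1, the red chlorophyll catabolite reductase, differed at each hour, with 6746 and 7743 at 8 h, 7689 and 8895 at 12 h and 6376 and 8127 at 16 h on day 1 against 3687 and 4232 at 32 h, 4262 and 3792 at 36 h and 3102 at 40 h on day 2, and 7915 on the doubted array. No day 2 array reached a day 1 array, and the difference was -1.01 ± 0.10 (adjusted p = 0.0009). OsNOL, the second chlorophyll b reductase, fell by less (-0.45 ± 0.10, adjusted p = 0.035). Its call was kept in 1 of the 10 further fits, and with 8 arrays neither OsNOL (adjusted p = 0.11) nor OsNYC1 (0.064) passed.

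**Figure D2:**
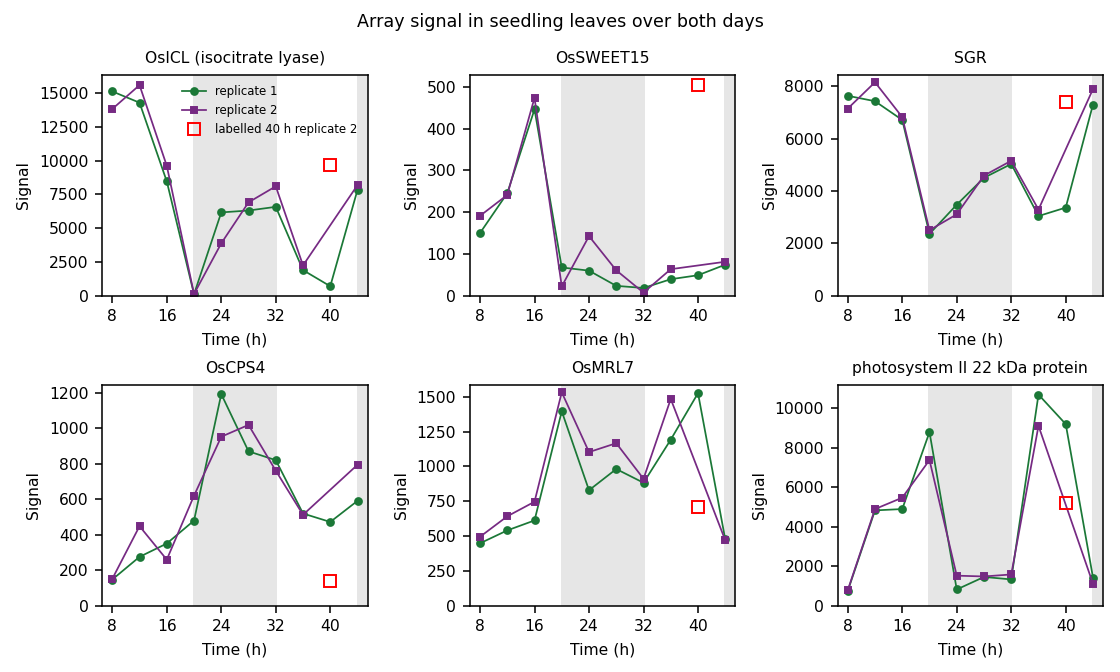
Array signal (vertical axis, linear scale, a separate range in each panel) against time in hours for 6 genes in seedling leaves. Lines join the arrays of replicates 1 and 2, the shaded bands mark the night from 20 to 32 h and from 44 h, and an open red square marks the array labelled 40 h replicate 2, which is not joined. For OsICL, OsSWEET15 and SGR the day 2 arrays lie below those of day 1 at the same clock hour, and for OsCPS4, OsMRL7 and the photosystem II 22 kDa protein they lie above, while the red square lies near the level of 16 h or, for OsCPS4, below it.

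Sugar transporters of the SWEET family, which let sucrose or hexoses pass across membranes, moved in both directions. Of 14 tested sugar transporter genes 3 fell and 1 rose, against 2.86% of all probe sets called lower and 1.87% called higher. OsSWEET15 gave 150.0 and 191 at 8 h, 245 and 241 at 12 h and 446 and 474 at 16 h on day 1 and 18.5 and 7.4 at 32 h, 39.5 and 63.5 at 36 h and 49.0 at 40 h on day 2, with 504 on the doubted array. It climbed through day 1 and stayed below 65 on day 2, where signals lie near the median of an array or below it, and the size of the fold depends on the constant of 32 added before the logarithm. On that scale the difference was -2.12 ± 0.15 (adjusted p = 0.00022, 0.098 with 12 arrays). Os8N3 (OsSWEET11), known as a target of the bacterial blight pathogen, gave 344 and 330.4 at 8 h, 1277 and 1266 at 12 h and 1073 and 1158 at 16 h on day 1 and 65.2 and 88.5 at 32 h, 613 and 624 at 36 h and 551 at 40 h on day 2, with 1029.5 on the doubted array. Its daily rise from the end of the night to noon was present on both days, and each day 2 array was below the day 1 arrays of its hour. The difference was -1.28 ± 0.14 (adjusted p = 0.0015). Os11N3 (OsSWEET14), a relative that blight bacteria also induce, fell by less (-0.74 ± 0.15, adjusted p = 0.023), a call that 5 of the 10 further fits kept. The member that rose, OsSWEET16, gave 310.2 and 325 at 8 h, 270.5 and 302 at 12 h and 242 and 239.6 at 16 h on day 1 and 584 and 534 at 32 h, 394 and 429.8 at 36 h and 544 at 40 h on day 2, and 267 on the doubted array. The days did not overlap at any hour, with a difference of 0.73 ± 0.10 (adjusted p = 0.0048).

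Class III peroxidases oxidise phenols in the wall, and 3 of 5 tested were lower. R1C-Prx had the smallest adjusted p of the named genes, with 289.9 and 249 at 8 h, 755 and 545 at 12 h and 633 and 655 at 16 h on day 1 against 37.2 and 56.2 at 32 h, 91.1 and 92.6 at 36 h and 70.0 at 40 h on day 2, and 637 on the doubted array. The highest day 2 array was below the lowest day 1 array. The difference was -2.33 ± 0.14 (adjusted p = 9.1e-05, 0.096 with 12 arrays). LOC_Os10g02070 (-1.17, adjusted p = 0.04) was kept in 1 of the 10 further fits and did not pass with 8 arrays (0.056). The third, a gene named only peroxidase (-1.25, adjusted p = 0.025), was kept in 3 of the 9 further fits that tested it. With 8 arrays it passed (0.0037). Among germin-like proteins, glycoproteins bound to the wall, 4 of 9 fell and none rose. OsGER5 led them with 14365 and 16146 at 8 h, 7470.0 and 9642 at 12 h and 6920.2 and 8132 at 16 h on day 1 and 2219 and 2701 at 32 h, 3708 and 3799.8 at 36 h and 4099.5 at 40 h on day 2, with 8619.7 on the doubted array. Among the 3 hours compared, its signal was highest at the end of the night on day 1 and lowest at the end of the night on day 2. The hour differences were -2.62, -1.17 and -0.87 and unequal (adjusted p = 0.013), and the mean difference was -1.64 ± 0.26 (adjusted p = 0.0081). GLP2 (-1.07 ± 0.20), OsGER3 (-0.63 ± 0.09) and OsGER4 (-0.57 ± 0.13) were the others, with adjusted p of 0.015, 0.0052 and 0.033, the last kept in 3 of the 10 further fits.

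Expansins, which loosen the wall during growth, fell in 4 of 17 tested and rose in none (median -0.27). They were OsEXP7 (-1.11 ± 0.24), OsEXPB4 (-0.97 ± 0.24), OsEXPB11 (-0.94 ± 0.16) and OsEXP6 (-0.70 ± 0.14), and their adjusted p ranged up to 0.046. The calls of OsEXPB4, OsEXP7 and OsEXP6 were kept in 2, 3 and 6 of the 10 further fits, and with 8 arrays OsEXPB4 (0.12), OsEXP6 (0.080) and OsEXPB11 (0.061) did not pass. Of 34 tested genes of the cellulose and lignin list 1 rose, the laccase LAC19 (0.62 ± 0.11, adjusted p = 0.014), and 1 fell, the cinnamyl alcohol dehydrogenase OsCAD8A (-0.94 ± 0.17, adjusted p = 0.015), with a median of -0.11. The lipid transfer protein probe set LTP110-A read 14453 and 13889.8 at 8 h, 8161 and 10194 at 12 h and 9855 and 10119 at 16 h on day 1 and 4459 and 4300.4 at 32 h, 5908 and 7669 at 36 h and 3724 at 40 h on day 2, and 10634 on the doubted array. The day 2 arrays were lower at each hour, least so at noon, with a difference of -1.15 ± 0.20 (adjusted p = 0.012). LTP-2 fell too (-1.16 ± 0.18, adjusted p = 0.0071), and the other 3 tested lipid transfer proteins did not pass. FOR1, a polygalacturonase-inhibiting protein, had a difference of -1.26 ± 0.12 (adjusted p = 0.00062). OsBURP16, a BURP domain protein, had -1.63 ± 0.39 with an adjusted p of 0.044, which became 0.053 with the replicate block and was kept in 2 of the 10 further fits.

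OsOPR1, a 12-oxophytodienoate reductase of the family that includes a jasmonate biosynthesis enzyme, gave 603 and 636 at 8 h, 753 and 694 at 12 h and 1276 and 1257 at 16 h on day 1 and 202 and 259 at 32 h, 288 and 375 at 36 h and 460.2 at 40 h on day 2, with 1260.5 on the doubted array. It was lowest at the end of the night and highest in the afternoon on each day, and every day 2 array was below every day 1 array. The difference was -1.24 ± 0.10 (adjusted p = 0.00046). CM-LOX1, a lipoxygenase, fell by less (-0.60 ± 0.09, adjusted p = 0.0082), and these were the 2 of 24 tested jasmonate genes that passed. Of all probe sets 2.86% were called lower, and of the 2330 named or described genes 93. With the replicate block 4 were lower, the others being OsOPR5 (0.020) and OsJAZ3 (0.036). GRXC1, a glutaredoxin, read 2594 and 2393 at 8 h, 2579.5 and 2197 at 12 h and 1730.2 and 1280.3 at 16 h on day 1 and 938 and 609.9 at 32 h, 948 and 812 at 36 h and 755 at 40 h on day 2, and 1227 on the doubted array. The days were separate at all hours, with a difference of -1.39 ± 0.15 (adjusted p = 0.0015). OsCAM-2, a calmodulin family member, had -1.31 ± 0.12 (adjusted p = 0.00062). AP25 had -1.38 ± 0.19 (adjusted p = 0.0047) and the glycosyl transferase LOC_Os10g40640 -1.35 ± 0.09 (adjusted p = 0.00012). LOC_Os08g42700, annotated as a putative resistance protein, had -1.35 ± 0.13 (adjusted p = 0.00062).

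**Figure D3:**
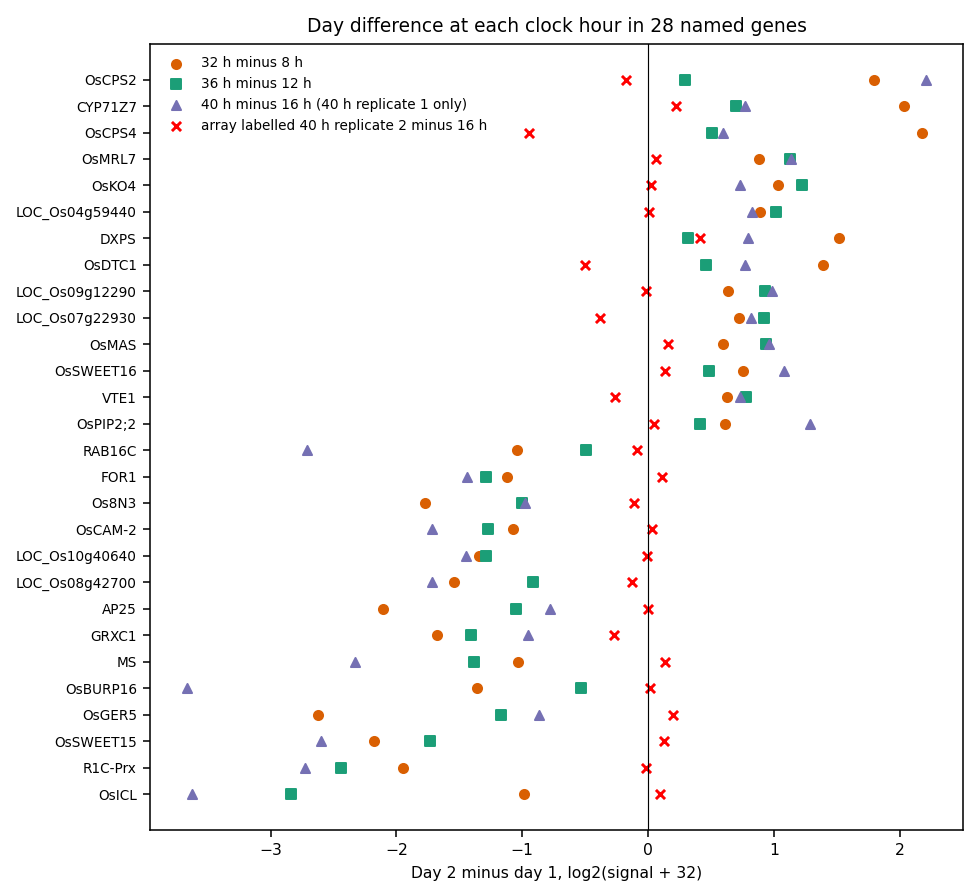
Difference between day 2 and day 1 at each clock hour on the log2(signal + 32) scale (horizontal axis) for 28 named genes. They have the largest called differences among those whose days did not overlap at any clock hour. Circles, squares and triangles mark 32 minus 8 h, 36 minus 12 h and 40 minus 16 h, the last from 40 h replicate 1 alone, and red crosses the doubted array minus the mean of 16 h. The 3 symbols of a gene lie on one side of 0 because the genes were so chosen. The crosses lie near 0 in most genes, that of OsCPS4 being the farthest from it.

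Among the genes that were higher on day 2, the diterpenoid phytoalexin pathway had 8 of 17 tested members higher and none lower (median 0.84, against 1.87% of all probe sets called higher). With the replicate block it was 7, because OsKS10 stood just under the threshold (adjusted p = 0.04999, and 0.051 blocked). OsCPS2 makes the ent-copalyl diphosphate of the phytocassanes. Its signals were 141 and 125 at 8 h, 397 and 373 at 12 h and 173 and 179 at 16 h on day 1 and 513 and 569 at 32 h, 482 and 475 at 36 h and 932 at 40 h on day 2, with 153 on the doubted array. The rise was small at noon and large at the other hours (1.80, 0.29 and 2.21, equality adjusted p = 0.0023), and the mean difference was 1.34 ± 0.27 (adjusted p = 0.022, 0.21 with 12 arrays). OsCPS4 makes the syn isomer for the momilactones and gave 148 and 152 at 8 h, 276 and 448 at 12 h and 350.5 and 259.8 at 16 h on day 1 and 819.7 and 761 at 32 h, 519.5 and 512 at 36 h and 472 at 40 h on day 2, with 142 on the doubted array, the lowest of all 12. The gap was widest at the end of the night, and the difference over the day was 1.16 ± 0.27 (adjusted p = 0.041). This call was kept in 1 of the 10 further fits, and that of OsCPS2 in 6.

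OsKO4 (CYP701A8), a P450 of phytoalexin synthesis, gave 287 and 294 at 8 h, 284 and 315 at 12 h and 532 and 432 at 16 h on day 1 and 574 and 685 at 32 h, 727 and 759.6 at 36 h and 819 at 40 h on day 2, with 489 on the doubted array. All day 2 arrays were above all day 1 arrays, with a difference of 1.03 ± 0.10 (adjusted p = 0.00077, 0.096 with 12 arrays). CYP71Z7, which hydroxylates a phytocassane precursor, gave 349.5 and 332 at 8 h, 718 and 731 at 12 h and 1258 and 1026 at 16 h on day 1 and 1596 and 1403 at 32 h, 1416 and 1014 at 36 h and 1961 at 40 h on day 2, with 1333 on the doubted array. It rose most at the end of the night, and the mean difference was 1.22 ± 0.22 (adjusted p = 0.015). OsDTC1, the cyclase that makes ent-cassadiene, had 0.89 ± 0.18 (adjusted p = 0.022), and OsMAS, which oxidises the last intermediate to momilactone A, 0.81 ± 0.12 (adjusted p = 0.0058). DXPS, a deoxyxylulose phosphate synthase at the start of the plastid route to diterpenes, had 0.89 ± 0.18 (adjusted p = 0.024). The calls of DXPS and OsDTC1 were kept in 6 and 8 of the 10 further fits. Both CYP76M7 (log2 difference -0.14, adjusted p = 0.63) and OsKO1 (-0.04, 0.93) of the list did not pass.

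Genes for plastid gene expression and biogenesis rose in 8 of 15 tested members (9 with the replicate block), with none lower, and all 15 differences were positive (median 0.50). OsMRL7, needed for chloroplast gene expression in seedlings, gave 448 and 495 at 8 h, 541 and 642 at 12 h and 612 and 746 at 16 h on day 1 and 883 and 911 at 32 h, 1192 and 1484 at 36 h and 1525 at 40 h on day 2, with 709.7 on the doubted array. The day 2 arrays were all above the day 1 arrays, with about the same distance at each hour (0.88, 1.13 and 1.14). The difference was 1.04 ± 0.10, or 2.06-fold (adjusted p = 0.00067, 0.096 with 12 arrays). OsPRDA1, a protein linked to the plastid-encoded RNA polymerase, gave 3306 and 2721 at 8 h, 3519.7 and 3668 at 12 h and 3293 and 3242 at 16 h on day 1 and 4443 and 4209.9 at 32 h, 6242 and 5943 at 36 h and 5648 at 40 h on day 2, and 3210.5 on the doubted array. The days did not overlap, with a difference of 0.68 ± 0.09 (adjusted p = 0.003), but another tested probe set of this gene had 0.0909 (adjusted p = 0.75). OsSig2B, a sigma factor of that polymerase, had 0.68 ± 0.10 (adjusted p = 0.0058). The others that rose were AC2 (0.59), wsl3 (0.52), PRIN2 (0.51), the DNA gyrase subunit GYRB (0.50, kept in 2 of the 10 further fits) and the protease OsEGY2 (0.49).

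Few genes of the photosynthetic apparatus passed. None of the 5 light harvesting genes passed (median -0.06), and 2 of 11 photosystem and electron transport genes did. One was a ferredoxin NADP reductase, 1 of the 2 genes named FNR, with a difference of 0.44 ± 0.10 (adjusted p = 0.033, kept in 3 of the 10 further fits). The other was LOC_Os04g59440, the photosystem II 22 kDa protein (PsbS), which lets the antenna release excess light as heat. It gave 749.6 and 789 at 8 h, 4831 and 4898 at 12 h and 4898 and 5474 at 16 h on day 1 and 1337 and 1587 at 32 h, 10693 and 9112 at 36 h and 9198 at 40 h on day 2, with 5211 on the doubted array. It was low at the end of both nights and high by noon, and each day 2 array lay above the day 1 arrays of its hour. The difference was 0.92 ± 0.09, or 1.9-fold (adjusted p = 0.00062, 0.096 with 12 arrays). VTE1, the tocopherol cyclase of vitamin E synthesis, also rose (0.71 ± 0.13, adjusted p = 0.015).

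In starch metabolism 3 of 24 tested genes rose and none fell. LOC_Os07g22930, the granule-bound starch synthase of leaves, gave 1734 and 1606 at 8 h, 2099.7 and 1740.2 at 12 h and 1202 and 915 at 16 h on day 1 and 3144 and 2453 at 32 h, 3930.2 and 3401 at 36 h and 1877 at 40 h on day 2, with 799 on the doubted array. The days did not overlap at any hour, with a difference of 0.82 ± 0.11 (adjusted p = 0.0041). The others were AGPS2 (0.43 ± 0.09, adjusted p = 0.025) and LOC_Os09g12660 (0.70 ± 0.16, adjusted p = 0.036), both glucose-1-phosphate adenylyltransferase genes of the first step of starch synthesis. Their calls were kept in 5 and 2 of the 10 further fits, and AGPS2 did not pass with 8 arrays (0.11). LOC_Os09g12290, the bifunctional aspartokinase and homoserine dehydrogenase that leads to threonine and methionine, gave 1360.1 and 1303 at 8 h, 1795 and 1589 at 12 h and 1352 and 1254 at 16 h on day 1 and 2360.1 and 1842 at 32 h, 3626 and 2899.6 at 36 h and 2613 at 40 h on day 2, and 1287 on the doubted array. It was higher at every hour of day 2, with 0.83 ± 0.11 (adjusted p = 0.0033). OsPIP2;2, a water channel of the plasma membrane, gave 4930.1 and 5769 at 8 h, 5611 and 6452 at 12 h and 3659 and 3934 at 16 h on day 1 and 8028 and 8305 at 32 h, 7703 and 8395 at 36 h and 9320.5 at 40 h on day 2, and 3928 on the doubted array. The day 2 arrays were higher at all hours, most in the afternoon, with 0.71 ± 0.13 (adjusted p = 0.018). Of the 21 tested aquaporins it was the 1 that rose, and 1 of the vacuolar membrane, OsTIP3, fell (-0.60 ± 0.11, adjusted p = 0.015). With the replicate block 2 rose, the other being OsTIP1 (0.87, blocked adjusted p = 0.015).

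**Figure D4:**
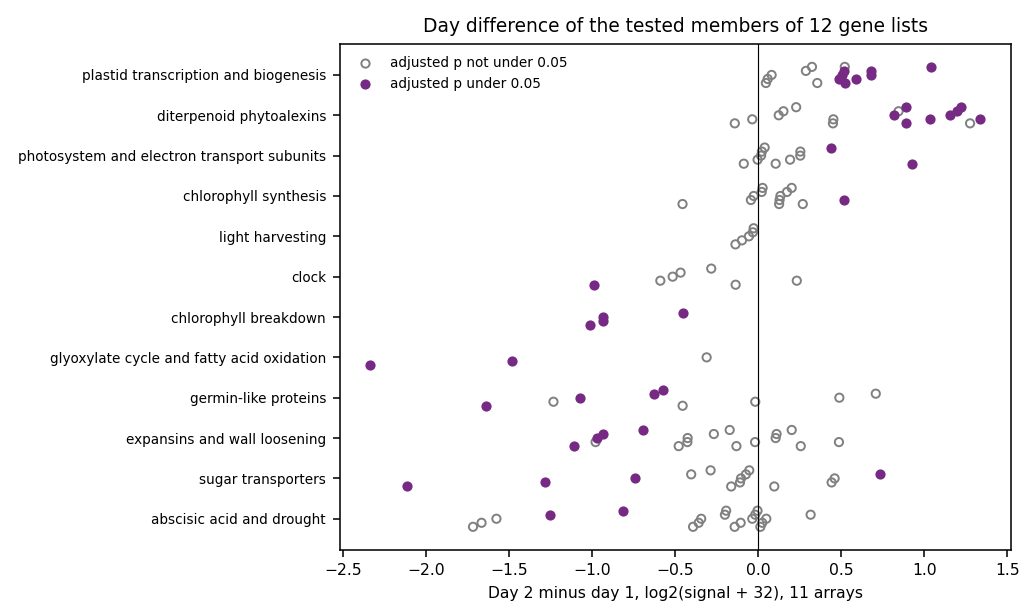
Difference between day 2 and day 1 on the log2(signal + 32) scale (horizontal axis, 11 arrays) for the tested members of 12 gene lists, 1 point per gene. Filled purple points have an adjusted p under 0.05 and open grey points do not. The 4 chlorophyll breakdown genes are filled and lie below 0, the 15 plastid genes lie above 0 with 8 filled, and the light harvesting genes are open and close to 0.

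Several lists gave no call. Of 26 ribosomal protein genes and 25 proteasome genes tested none passed in either direction, with medians of 0.01 and -0.01. The same held for small heat shock proteins (0 of 14), heat shock factors (0 of 16), histones (0 of 8), WRKY factors (0 of 6) and auxin genes (0 of 44). With the replicate block 1 heat shock factor, OsHsf-05, was higher, and of the auxin genes OsGH3-2 was higher and IAA6 lower. These are counts at the threshold and do not show that the days were equal. Of 19 genes of the abscisic acid and drought list 2 fell, RAB16C (-1.25 ± 0.30, adjusted p = 0.042) and rab25 (-0.81 ± 0.15, adjusted p = 0.015), and both encode dehydrins. RAB16C did not pass with the replicate block (0.05), which leaves 1, and its call was kept in 2 of the 10 further fits.

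Of the 7 clock genes 1 passed the day comparison. OsCCA1, the dawn repressor, gave 22719 and 21123 at 8 h, 13736 and 13779 at 12 h and 3145 and 3318 at 16 h on day 1 and 19708 and 21352 at 32 h, 19753 and 18145 at 36 h and 4202 at 40 h on day 2, with 3260.5 on the doubted array. It was far lower in the afternoon than at the end of the night on both days, and at noon the day 2 arrays were above those of day 1 (0.23 ± 0.11 over the day, adjusted p = 0.28). OsPRR95 (-0.59 ± 0.15, adjusted p = 0.056), GI (-0.47 ± 0.14, adjusted p = 0.1) and OsPRR1 (-0.52 ± 0.13, adjusted p = 0.054) had negative differences that did not pass, but with the replicate block they did, at 0.026, 0.046 and 0.021, and OsPRR95 also passed in the fit of 8 arrays (0.013). OsPRR73 (-0.28 ± 0.21, adjusted p = 0.53) and OsPRR37 (-0.14 ± 0.20, adjusted p = 0.79) did not pass in either fit. The gene that passed was OsPCL1, the rice relative of the Arabidopsis evening gene LUX ARRHYTHMO. It gave 147 and 184 at 8 h, 201 and 286 at 12 h and 1373 and 1255 at 16 h on day 1 and 88.3 and 122.9 at 32 h, 80.3 and 132 at 36 h and 389 at 40 h on day 2, with 1379.9 on the doubted array. It rose in the afternoon of both days and was lower on day 2 at each hour, with -0.99 ± 0.19 (adjusted p = 0.019, 0.19 with 12 arrays). In the fit of 8 arrays OsPCL1 did not pass (0.074).

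The days were also compared at each clock hour. At the end of the night 2024 probe sets differed (8.39%, 770 higher and 1254 lower), at noon 587 (2.43%, 203 and 384) and in the afternoon 1749 (7.25%, 789 and 960). The last count rests on a single day 2 array, so its spread comes from the other time points, and it ranged from 603 to 1478 when a further array was left out. With all 12 arrays the counts were 999 (4.13%), 87 (0.36%) and 0 (0%, and 1119 or 4.63% at an unadjusted p under 0.05). With the replicate block they were 4940 (20.5%), 1734 (7.19%) and 4565 (18.9%) with 11 arrays, and 2361 (9.76%), 315 (1.3%) and 0 with 12. The test that the 3 differences are equal called 1366 probe sets (5.66%) with 11 arrays and 259 (1.07%) with 12, all 259 among the 1366, and 4474 (18.5%) and 736 (3.04%) with the block. Of the 1142 probe sets called between the days, 169 were among the 1366. The arrays labelled 20 h and 44 h, which are outside the day comparison, differed in 9466 of 24298 probe sets (39%, 51.5% with the replicate block, and 43.1% without the doubted array) in a fit that took the spread from all seedling arrays, unlike the counts above.

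The widest ranges belonged to RAB21, RAB16B and LEA19, dehydrins and a related protein that protect cells on drying, and they came from the afternoon. RAB21 gave 10379 and 9592 at 8 h, 9332 and 6657 at 12 h and 18233 and 13841 at 16 h on day 1 and 7469 and 5367 at 32 h, 5776 and 5649 at 36 h and 399.6 at 40 h on day 2, with 13280.3 on the doubted array. Its differences at the 3 hours were -0.65, -0.46 and -5.20 (equality adjusted p = 0.0013), and 40 h replicate 1 alone carries the last value. LEA19 gave 8276 and 8059 at 8 h, 7689 and 7131 at 12 h and 9543 and 9567 at 16 h on day 1 and 4803 and 3842 at 32 h, 4228 and 4484 at 36 h and 509 at 40 h on day 2, with 9941 on the doubted array, and differences of -0.92, -0.76 and -4.15. RAB16B had -1.39, 0.02 and -4.26, with 2620.1 and 2312 at 16 h against 98.3 and 2499.6 on the arrays labelled 40 h. With 12 arrays none of these passed the equality test (adjusted p = 0.86 for RAB21, 0.95 for LEA19 and 0.86 for RAB16B), since the arrays labelled 40 h lie far apart in all 3 genes. OsPMEI8, a pectin methylesterase inhibitor, differed in the other direction at 40 h (-1.20, -0.26 and 2.16, equality adjusted p = 0.45 with 12 arrays), and again only replicate 1 carried it (2149.9 and 462 on the 2 arrays).

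Other genes passed the equality test both without and with the doubted array, and the pairs of adjusted p below are in that order. CYP99A3, a P450 of the momilactone pathway, gave 131 and 156 at 8 h, 399 and 343 at 12 h and 177 and 141 at 16 h on day 1 and 833 and 674 at 32 h, 222 and 248 at 36 h and 356 at 40 h on day 2, with 164 on the doubted array. It was far higher at the end of the second night than of the first, but not at noon (2.16, -0.59 and 1.03, equality adjusted p = 0.0023, 0.032 with 12 arrays). LAC20, a laccase, fell at the end of the night (-2.11, 0.31 and 0.51, 0.0011 and 0.0052). OsGER8 fell there as well (-2.66, -0.59 and -0.06, 0.0041 and 0.0057), and OsTIP2, a vacuolar water channel, rose there (2.04, -0.54 and -0.27, 0.0023 and 0.0076). LOC_Os07g34570, the enzyme that makes the thiazole ring of vitamin B1 in the chloroplast, gave 1650.5 and 1436 at 8 h, 6362 and 3996 at 12 h and 20698 and 17562 at 16 h on day 1, and 336 and 358 at 32 h, 1192 and 1045 at 36 h and 20147 at 40 h on day 2. Both days reached about the same afternoon level, which the doubted array shared (18647), but the morning levels of day 2 were lower (-2.05, -2.14 and 0.08, 0.016 and 0.018). OsASMT1, an enzyme of melatonin synthesis, rose at the end of the night (1.76, -0.34 and -0.63, 0.0022 and 0.0084). ACO1, the ethylene-forming ACC oxidase, was higher at the end of the second night and lower later (0.91, -1.21 and -0.79, 0.0013 and 0.02). OsAT15, a member of the BAHD acyltransferases, was lower at the end of the night and higher at noon (-1.19, 1.01 and 0.34, 0.0029 and 0.016).

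Flag leaves had no called day difference. Of 23290 probe sets tested over their 12 arrays 0 passed in limma (0%), 2039 (8.75%) had an unadjusted p under 0.05, and the replicate block called 12 (0.0515%, 3 higher and 9 lower). The difference between the tissues was tested directly, as the seedling difference minus the flag leaf difference. It called 0 of 24444 probe sets with all 24 arrays (82 with the replicate block, 0.335%, and 2472 at an unadjusted p under 0.05) and 182 of 24411 (0.746%) without the doubted array, 74 positive and 108 negative (455 with the block, 1.86%). Of these 182, 139 were among the 1142 of the seedling comparison. Tissue, age, growth site and temperature differ together between the 2 kinds of leaf and cannot be told apart.

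OsICL gave the largest such difference among the named genes called in both tests. In flag leaves it read 55.0 and 13.1, 80.8 and 119.5 and 39.3 and 82.0 at 8, 12 and 16 h, and 226 and 287, 88.3 and 91.4 and 115 and 142 on day 2. These signals are low, so the fold depends on the constant. The flag leaf difference was positive (0.97 ± 0.33, adjusted p = 0.46), which did not pass, while seedling leaves were lower. The difference between the tissues was -3.31 ± 0.52 (adjusted p = 0.0074, 0.11 with 24 arrays). SGR had 0.78 ± 0.27 in flag leaves and a difference between the tissues of -1.71 ± 0.33 (adjusted p = 0.024). OsRCCR1 (-1.37 ± 0.27, adjusted p = 0.025) and OsPCL1 (-1.62 ± 0.26, adjusted p = 0.0074) passed as well. LOC_Os08g42700 differed by -1.86 ± 0.38 (adjusted p = 0.029). R1C-Prx (20.6 to 80.3), OsGER5 (7.1 to 73.9) and AP25 (5.0 to 61.5) had low signals on all 12 flag leaf arrays, where a day difference could not be measured, so for these genes the test repeats the seedling difference and says nothing of the tissues. Among the genes that rose in seedlings, OsPRDA1 differed between tissues by 0.70 ± 0.13 (adjusted p = 0.015, -0.02 ± 0.10 in flag leaves). LOC_Os09g12290 differed by 1.41 ± 0.32 with an adjusted p just under the threshold (-0.58 ± 0.28 in flag leaves). OsMRL7 did not (0.50 ± 0.30, adjusted p = 0.56), with 0.54 ± 0.26 in flag leaves. The diterpenoid genes OsCPS4 (1.81 ± 0.47, adjusted p = 0.074), OsCPS2 (1.97 ± 0.61, 0.15) and OsKO4 (1.42 ± 0.41, 0.12) did not pass, although the replicate block gave 0.021 for OsCPS2 and 0.006 for OsKO4.

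**Figure D5:**
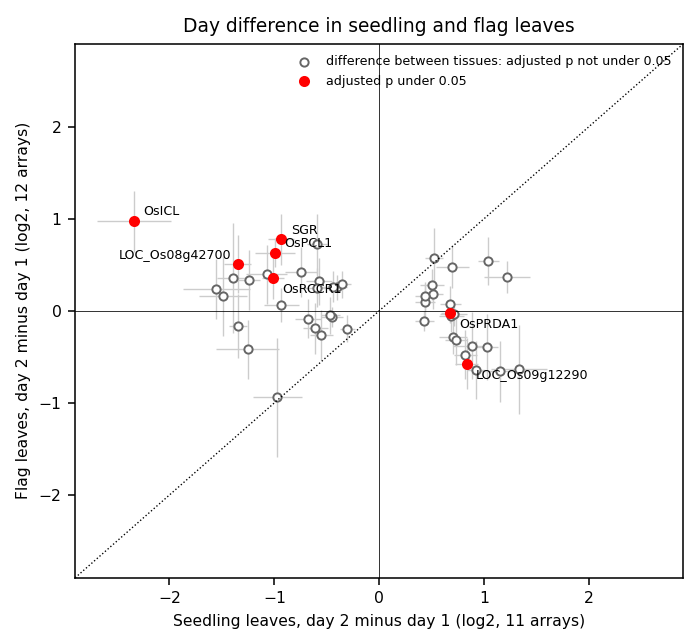
Log2 difference between day 2 and day 1 in seedling leaves (horizontal axis, 11 arrays) and flag leaves (vertical axis, 12 arrays) for the 49 named genes that were called in seedling leaves and tested in both, with standard errors as grey bars. The dotted line marks equal differences, and red points are the 7 genes whose difference between tissues had an adjusted p under 0.05. OsICL lies at -2.34 in seedling and 0.97 in flag leaves.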

How the data were processed

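RNA of seedling and flag leaves was hybridised to the Affymetrix Rice Genome array. The deposited values are signal intensities on a linear scale, 1 for each probe set. The authors computed them with the MAS5 method in GCOS, with global scaling of every array to 500. No version of the tools is given in the sources used here. Rice probe sets (57194) were kept. The array annotation and RefSeq assigned a single gene to 22436 of them, more than 1 gene to 95 and no gene to 34663. A gene name was found for 3194. Probe sets ending in _s_at, _x_at or _a_at can read several near-identical transcripts, as for SGR, OsMRL7, OsPIP2;2, LEA19, Os8N3 and OsCPS4, and the RAB16 genes are close relatives. No sequences were used here.

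The values were taken as log2(signal + 32) without further normalization, kept where the mean signal over the fitted arrays reached 100, and fitted with limma 3.58.1 in R 4.3.3. Tests were two-sided with Benjamini-Hochberg adjustment over all probe sets tested, at 0.05. Errors are standard errors of the fit, whose precision is set by how few arrays there are. Terms were day and clock hour (3 levels). Differences per hour, their equality and the tissue contrast used time point means or day within tissue. The fits were tested on simulated data first, with independent errors on each array. Differences of 0.5 on the log2 scale were recovered in 37.3% of cases with 12 arrays and in 58.2% with 11. The simulated data lacked the pairing of replicates described next, so they cannot vouch for the errors under it.

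The differences between replicates 1 and 2 correlated between all time points. In seedling leaves r was 0.35 to 0.56 over 15 pairs, and in flag leaves 0.24 to 0.43. The main fits left this pairing out, so their errors and adjusted p are unpaired. The blocked fits took the replicate number as a further term. Blocked counts stand beside those they change for the lists and genes described.

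The named genes were those with 1 annotated gene and a name or informative description, 1 probe set per gene (that of highest mean signal). They are the 14 higher and 14 lower with the largest called day difference whose arrays did not overlap at any hour. Also named are the 8 with the widest range over the hours. So are the 6 with the largest difference between tissues among those called in both. Then come up to 4 members of each list, those with the smallest adjusted p, and all 7 clock genes. With 12 arrays the day and tissue parts name no gene, so these were applied to the 11 arrays after the values had been seen, and the part on the hours was applied to both sets of arrays. The list members AC2, PRIN2, OsEGY2, OsKS10, CYP76M7 and OsKO1 were added to these after their values were seen. Of the 72 named and called genes 9 had other tested probe sets, 12 in all. Of these 12, 11 had the same sign and that of OsPHO1;2 was at 0, but only 4 were also called. Among those not called were probe sets of OsPIP2;2 (0.643, adjusted p = 0.17), LOC_Os08g42700 (-1.2, 0.11) and OsNOL (-0.464, 0.25). The members and lists were chosen with earlier results of these data known, and the lists were rewritten by gene symbol once the annotation had been read.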

Additional observations from a re-analysis of the deposited data

Results flagged for a closer look

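In groups of 6 arrays of a day, 56 were checked for a value far from the others, and 7 were found. Chance flags about 1 in 20 groups of like arrays, a rate that does not hold here, since the 28 genes were chosen for their day difference without the array labelled 40 h replicate 2 and each group mixes 3 clock hours. Of the 7 values, 5 fell on that array. OsCPS4 was lowest there (141.8) and so was OsPIP2;2 (3928), while R1C-Prx (637.1), OsSWEET15 (504.3) and RAB16C (1285) were highest. The other 2 fell on 40 h replicate 1, which was highest in OsMAS (229.1) and lowest in FOR1 (317.1).

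The test of the seedling day difference minus that of flag leaves called 182 probe sets. The 6 named genes with the largest difference, among those called in both tests, are given here. On the log2 scale the difference was -3.31 in OsICL, -2.35 in R1C-Prx, -1.86 in LOC_Os08g42700, -1.75 in OsGER5, -1.71 in SGR and -1.64 in AP25. R1C-Prx, OsGER5 and AP25 were low on all flag leaf arrays, so their values restate the seedling difference and show no difference between the tissues. OsICL was low there too. The test that the day difference is equal at the 3 clock hours called 1366 probe sets. The 8 named genes with the widest range of this difference among those called follow. The range on the log2 scale was 4.74 in RAB21, 4.28 in RAB16B, 3.39 in LEA19, 3.36 in OsPMEI8, 3.13 in OsBURP16, 2.75 in CYP99A3, 2.64 in OsICL and 2.62 in LAC20. All 14 values leave out the doubted array, and the 6 differences between tissues also use the flag leaf arrays. Apart from those of CYP99A3 and LAC20 none passed with the doubted array included.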

How the results depend on the processing

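The doubted array decided most counts. With all 12 arrays the day comparison gave 0 calls, and 1 with a constant of 1, a mean signal of at least 200, time point as a random block or array weights. It gave 578 with 6 time point means, 686 without the 16 h and 40 h arrays and 1311 when all 20 seedling arrays shared the spread. Leaving out 1 array at a time gave 0 to 1142, where 1142 is the value without the doubted array, 1 without 8 h replicate 2, and 0 for each other array. For the hours 8, 12 and 16 these ranges were 336 to 2024, 4 to 587 and 0 to 1749, for hour dependence 34 to 1366 (2006 and 578 at hours 8 and 12, and 624 for hour dependence, without 40 h replicate 1), for the tissue difference 0 to 182 (14 without flag leaf 40 h replicate 1 and 12 without flag leaf 16 h replicate 2), and for flag leaves 0 to 1. No filter on low signals gave 546 calls at hour 8, 17 at hour 12 and 42 for hour dependence. The replicate block gave 2361 at hour 8, 315 at hour 12, 736 for hour dependence, 82 for the tissue difference and 12 for flag leaves.

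Without the doubted array, an alternative chosen after seeing the data, the 1142 calls became 387 with no filter, 2810 with 6 time point means, 654 with a random block, 310 without the 8 h and 32 h arrays, 525 without the 12 h and 36 h arrays and 3469 when all seedling arrays shared the spread. Means of both replicates (3 against 3) gave 0, with fewer arrays, and a test against a fold of 1.5 gave 10, all lower. Leaving out a further array gave 562 to 897, and 562 was without 8 h replicate 2. In these fits and those below, 40 h replicate 1 was never the array left out. It was 605 without 8 h replicate 1, 742 without 16 h replicate 1, 646 and 668 without 32 h replicates 1 and 2, 647 without 36 h replicate 1 and 677 without 12 h replicate 2. The ranges were 822 to 1762, 105 to 463 and 603 to 1478 at the 3 hours, with the lower values when an array of that hour was left out, and 545 to 806 for hour dependence, whichever array was left out. For the tissue difference they were 84 to 247. The count was 84, 91, 103 and 90 without replicate 1 of 8, 16, 32 and 36 h, 103, 88, 97 and 114 without replicate 2 of 8, 12, 16 and 32 h, and 121 without flag leaf 32 h replicate 1. No filter gave 936, 115 and 433 at the 3 hours, 288 for hour dependence and 62 for the tissue difference. The 182 calls of the tissue difference became 86 with a constant of 1 and 359 with a constant of 100. The replicate block gave 4940, 1734 and 4565 at the 3 hours, 4474 for hour dependence and 455 for the tissue difference. In no case was the cause tested.

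Among single named genes, 2 differences changed sign with 12 arrays and 3 with 11. Without the 8 h and 32 h arrays OsPRR73 moved to 0.0326 (0.119 with 11 arrays) and OsPRR37 to 0.0068 (0.153 with 11 arrays). With 11 arrays and 1 further array left out OsPRR37 ranged from -0.2075 to 0.0068, the latter without 8 h replicate 1. None of these was called. With 11 arrays 1877 values kept their side of the threshold, 529 lost it and 18 gained it. Signals under about 65 lie near the median of an array, so the folds of OsSWEET15 and R1C-Prx depend on the constant.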

Other observations

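The arrays labelled 20 h and 44 h, the start of each night, are not in the day comparison. Whether these labels are right was not tested. Of 24298 probe sets, 9466 differed (39%), 3729 higher and 5737 lower at 44 h, with the spread shared over all 20 seedling arrays (12509 with the replicate block, 10453 of 24274 without the doubted array). The 4 arrays of these hours were each closest to their own replicate. OsICL read 110.5 and 130.4 at 20 h and 7844 and 8197 at 44 h, and SGR 2364 and 2505 and 7311 and 7899.8. At 20 h both genes lay below every one of the 6 arrays of day 1. At 44 h OsICL lay near both its 32 h arrays (6584 and 8106) and its 16 h arrays (8474 and 9626). SGR at 44 h lay within its range of day 1. LOC_Os04g59440 (PsbS) went the other way, with 8792 and 7379 at 20 h and 1431 and 1118 at 44 h. Clock genes differed too. OsCCA1 read 636 and 713 at 20 h and 7654 and 7986 at 44 h, and OsPCL1 18853 and 15741 and 2150.2 and 2103, while GI was level, with 14175 and 13464 and 13947 and 13725. The log2 difference between 44 and 20 h was 3.48 for OsCCA1 (adjusted p = 4.6e-09). The drought proteins RAB21 (212 and 176 at 20 h, 16997 and 13597 at 44 h) and LEA19 (236 and 218, 4016 and 3424) were low at 20 h, as they were on 40 h replicate 1.

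In 3 diterpenoid genes the highest signals of the seedling arrays fell in the first night. OsCPS2 reached 1582 and 1238 and OsCPS4 1192 and 952 at 24 h, above every array of day 1 or day 2. CYP71Z7 reached 4234 and 3479 at the same hour.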
